A study of Homo sapiens with 3 samples.

Results

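Serine, glycine, one-carbon units, asparagine and cysteine are made in human cells by a small set of enzymes, of which 10 were followed here: PHGDH, PSAT1, PSPH, SHMT1, SHMT2, MTHFD2, ALDH1L2, ASNS, CTH and CBS. They were found by symbol in a table of 16662 genes. All 10 were listed, each on 1 row, and all 10 had a mean of at least 1 CPM, a level that 13879 genes reached (CPM is a read count scaled to the same total in each library). The cells were H1975, an established human lung adenocarcinoma line, transfected with siHHLA3-1 (labelled HHLA3-1 knockdown), siHHLA3-3 (HHLA3-3 knockdown) or the control siRNA siNC (NC knockdown). Each group was 1 library of total RNA. Transfection was done at about 70% confluency in serum-free medium for 6 h, and a further 24 h in medium with 10% serum followed in every group. Every library also has a batch label of its own, and an effect of batch cannot be told apart from that of the siRNA. No siRNA sequence is given in the sources used here.

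The serine pathway branches from glycolysis. PHGDH oxidises 3-phosphoglycerate, PSAT1 adds an amino group from glutamate, and PSPH removes the phosphate to give serine. SHMT1 in the cytosol and SHMT2 in mitochondria then split serine into glycine and a folate-bound carbon, which mitochondrial MTHFD2 oxidises and mitochondrial ALDH1L2 can release as carbon dioxide with NADPH. ASNS makes asparagine from aspartate and glutamine. CBS and CTH make cysteine from homocysteine and serine. Many of these genes are known targets of the transcription factor ATF4, which is translated when cells lack amino acids, and some lung cancers are known for high PHGDH. CTH is also the gene next downstream of HHLA3 on chromosome 1.

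The best-known ATF4 site of the set lies in the ASNS promoter, and the letters are shown because ASNS had the highest ratios of the set in both comparisons with siNC. The windows are those of RefSeq on GRCh38.p14, from 250 bases before to 50 bases after the annotated start, on the strand of the gene. Capitals mark TGATGNAA, the core of the C/EBP-ATF response element, searched on both strands. The CTH window is shown beside it as that of the neighbour of HHLA3, and it holds no match.

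ASNS, chr7:97872359-97872658, minus strand: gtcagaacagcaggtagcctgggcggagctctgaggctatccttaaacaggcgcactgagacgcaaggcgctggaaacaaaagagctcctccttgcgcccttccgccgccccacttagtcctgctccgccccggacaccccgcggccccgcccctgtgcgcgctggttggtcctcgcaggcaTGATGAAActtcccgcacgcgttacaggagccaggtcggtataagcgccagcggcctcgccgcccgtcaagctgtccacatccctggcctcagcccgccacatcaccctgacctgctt

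CTH, chr1:70411018-70411317, plus strand: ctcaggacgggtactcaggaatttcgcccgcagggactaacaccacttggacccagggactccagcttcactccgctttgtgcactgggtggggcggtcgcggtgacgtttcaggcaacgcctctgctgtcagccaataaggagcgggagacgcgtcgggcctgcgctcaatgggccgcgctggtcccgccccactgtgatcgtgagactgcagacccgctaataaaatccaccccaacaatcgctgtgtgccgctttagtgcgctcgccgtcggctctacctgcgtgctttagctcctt

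In the ASNS window the match reads TGATGAAA and begins 68 bases before the start. RefSeq windows were available for 7 of the 10 enzymes, as 10 windows in all, and 1 of the 10 held the core. The core was held by 3.62% of all 35116 RefSeq windows. PSPH, SHMT2 and ALDH1L2 had no window. A match is a string of letters and not a measured site, and binding was not measured.

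HHLA3 itself, the targeted gene, had 1.55 CPM with siHHLA3-1 (55 counts) and 0.735 CPM with siHHLA3-3 (20 counts), against 5.99 CPM with siNC (192 counts). It was thus lower in both knockdown libraries. Library totals were 35069930, 26950852 and 32813003 reads with siHHLA3-1, siHHLA3-3 and siNC. A floor of 3 counts corresponds to 0.0845, 0.110 and 0.0935 CPM in that order. Of 10 epithelial and lung markers 8 were listed, with a summed level of 4998, 4179 and 5142 TPM (a read count scaled by gene length and library). Of 6 blood cell markers 2 were listed (sums of 25.1, 20.0 and 24.7 TPM). Of 4 endothelial markers 1 was listed, CDH5 (11.2, 1.77 and 4.47 TPM), and of 5 fibroblast markers 1, COL1A1 (9.70, 4.32 and 4.27 TPM). There were no replicates, so no p-value was computed for the values that follow. All intervals are exact 95% intervals that cover counting error only.

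Across the set, 9 of the 10 enzymes had their highest level in the siHHLA3-3 library, 0 in the siHHLA3-1 library and 1, SHMT1, in the siNC library. For CBS, counted among the 9, the siHHLA3-3 and siHHLA3-1 levels differed by less than counting error (13.0 and 12.9 CPM). Of all 13879 genes above the filter, 33.0% were highest with siHHLA3-3. The summed level of the 10 enzymes was 493 TPM with siHHLA3-1 and 762 TPM with siHHLA3-3, against 520 TPM with siNC. SHMT2 and PSAT1 made up most of each sum. RNA was taken from whole cultures, so a higher level in all cells and a still higher level in some of them cannot be told apart.

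**Figure D1:**
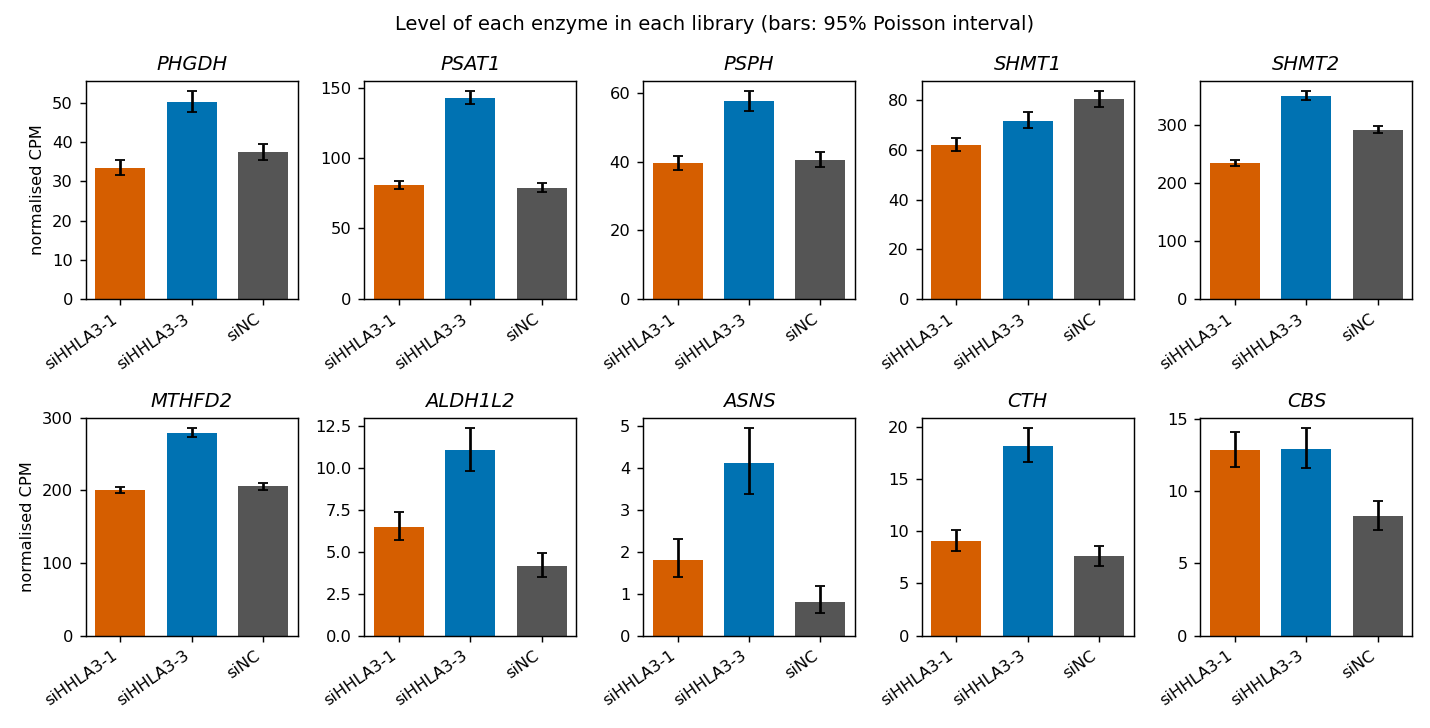
Level of each of the 10 enzymes as normalised CPM (bars, axes from 0) in the siHHLA3-1, siHHLA3-3 and siNC libraries, 1 library each. Error bars are exact 95% Poisson intervals for counting error. The siHHLA3-3 bar is the highest in 9 of 10 panels, and in the SHMT1 panel the siNC bar is. In the CBS panel the siHHLA3-3 and siHHLA3-1 intervals overlap.

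PHGDH, the first and committed enzyme of serine synthesis, stood at 33.4 CPM from 1186 reads with siHHLA3-1 (31.5 to 35.4) and 50.2 CPM from 1368 reads with siHHLA3-3 (47.6 to 53.0), against 37.5 CPM from 1202 reads with siNC (35.4 to 39.6). The siHHLA3-3 library was highest and its interval did not overlap the others. PHGDH was 1.34-fold higher with siHHLA3-3 than with siNC (1.24 to 1.45) and 1.12-fold lower with siHHLA3-1 than with siNC (1.03 to 1.22).

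PSAT1, the aminotransferase of the second step, had 80.7 CPM from 2864 reads with siHHLA3-1 (77.7 to 83.7) and 143 CPM from 3889 reads with siHHLA3-3 (138 to 147), against 78.9 CPM from 2531 reads with siNC (75.9 to 82.0). The siHHLA3-1 and siNC intervals overlapped, and the siHHLA3-3 value lay apart from both. It was 1.81-fold higher with siHHLA3-3 than with siNC (1.72 to 1.90), the widest difference among the 3 enzymes of the pathway. PSPH, the phosphatase of the last step, had 39.6 CPM with siHHLA3-1 and 57.6 CPM with siHHLA3-3, against 40.5 CPM with siNC. Its siHHLA3-1 and siNC intervals overlapped as well (37.6 to 41.7 and 38.3 to 42.7), and it was 1.42-fold higher with siHHLA3-3 (1.32 to 1.53). All 3 enzymes of serine synthesis were therefore higher with siHHLA3-3 and within 1.12-fold of siNC with siHHLA3-1. PSPH has a pseudogene, PSPHP1, with 70, 64 and 77 counts in the siHHLA3-1, siHHLA3-3 and siNC libraries, against 1407, 1567 and 1298 for PSPH itself.

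SHMT1, the cytosolic hydroxymethyltransferase, was the exception of the set. It stood at 62.0 CPM from 2202 reads with siHHLA3-1 (59.4 to 64.7) and 71.8 CPM from 1955 reads with siHHLA3-3 (68.7 to 75.1), against 80.4 CPM from 2579 reads with siNC (77.3 to 83.6). Its 3 intervals did not overlap, and siNC was the highest. SHMT1 was 1.30-fold lower than siNC for siHHLA3-1 (1.22 to 1.37) and 1.12-fold lower with siHHLA3-3 (1.06 to 1.19). In GENCODE release 29 it shares 196 bases of exon with SMCR8 on the opposite strand, and whether the counting used strand is not stated in the labels. SMCR8 had log2 ratios to siNC of 0.43 and 0.26, on the other side of 0 from SHMT1, and its part in the SHMT1 counts was not tested.

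SHMT2, the mitochondrial counterpart, differed in direction between the siRNAs. It had 234 CPM from 8322 reads with siHHLA3-1 (229 to 239) and 351 CPM from 9551 reads with siHHLA3-3 (344 to 358), against 292 CPM from 9366 reads with siNC (286 to 298). The siNC value lay between the others and none of the intervals overlapped. SHMT2 was 1.25-fold lower with siHHLA3-1 than with siNC (1.21 to 1.28). It was 1.20-fold higher with siHHLA3-3 than with siNC (1.17 to 1.24). By TPM, SHMT2 exceeded SHMT1 by 5.99-fold with siHHLA3-1 and 7.75-fold with siHHLA3-3, against 5.76-fold with siNC. On the opposite strand SHMT2 shares 427 bases of exon with AC137834.2 and 33 with NDUFA4L2, for which no value is given here.

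MTHFD2, the mitochondrial methylenetetrahydrofolate dehydrogenase, had 201 CPM from 7125 reads with siHHLA3-1 (196 to 205) and 280 CPM from 7613 reads with siHHLA3-3 (273 to 286), against 206 CPM from 6594 reads with siNC (201 to 211). The siHHLA3-1 and siNC intervals overlapped, while siHHLA3-3 was 1.36-fold above siNC (1.32 to 1.41). The log2 ratios of its paralogue MTHFD2L to siNC were 0.06 for siHHLA3-1 and 0.19 for siHHLA3-3. The cytosolic trifunctional enzyme MTHFD1 had ratios of -0.52 and -0.08. On the opposite strand MTHFD2 shares 1324 bases of exon with SLC4A5 and 295 with AC006030.1, for which no value is given here. ALDH1L2, the mitochondrial formyltetrahydrofolate dehydrogenase, had 6.51 CPM from 231 reads with siHHLA3-1 (5.69 to 7.40) and 11.1 CPM from 301 reads with siHHLA3-3 (9.84 to 12.4), against 4.18 CPM from 134 reads with siNC (3.50 to 4.95). Both knockdown libraries were above siNC with no overlap of intervals, 1.56-fold for siHHLA3-1 (1.25 to 1.94) and 2.65-fold for siHHLA3-3 (2.15 to 3.27). ALDH1L2 shares 145 bases of exon with C12orf45 on the opposite strand, whose ratios were -0.24 and -0.10.

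ASNS, asparagine synthetase, had the lowest counts of the set and its largest ratios to siNC. Its level was 1.80 CPM from 64 reads with siHHLA3-1 (1.39 to 2.30) and 4.11 CPM from 112 reads with siHHLA3-3 (3.39 to 4.95), against 0.811 CPM from 26 reads with siNC (0.529 to 1.19). The 3 intervals did not overlap, and the order was siHHLA3-3, siHHLA3-1, siNC. ASNS was 2.22-fold above siNC for siHHLA3-1 (1.39 to 3.66) and 5.08-fold for siHHLA3-3 (3.29 to 8.11). The log2 ratios of (CPM + 1), a scale that understates the difference of so low a gene, were 0.63 and 1.498. A processed pseudogene within the span of ASNS, AC005326.1, had 6 and 16 counts with siHHLA3-1 and siHHLA3-3, against 3 with siNC, and shares no exon base with it. AC079781.5, a processed transcript on the same strand, shares 1985 bases of exon with ASNS (4.46 kb of exon in all) and no value is given for it here, so the ASNS counts are uncertain to that extent.

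CTH, cystathionine gamma-lyase, was measured at 9.12 CPM from 324 reads with siHHLA3-1 (8.16 to 10.2) and 18.3 CPM from 497 reads with siHHLA3-3 (16.7 to 19.9), against 7.61 CPM from 244 reads with siNC (6.68 to 8.62). The siHHLA3-3 library stood apart, and the siHHLA3-1 and siNC intervals overlapped. CTH was 1.20-fold above siNC for siHHLA3-1, with an interval of the ratio (1.01 to 1.42) that did not hold 1, and 2.40-fold for siHHLA3-3 (2.05 to 2.81). The start of CTH lies 25878 bases beyond the end of HHLA3 on the same strand (GENCODE release 29, GRCh38). The siRNA libraries had HHLA3 at 25.9% of the siNC level with siHHLA3-1 and 12.3% with siHHLA3-3. CTH stood at 120% and 240.0% of it. With siHHLA3-3 over siNC, other genes nearby had ratios nearer 0: the log2 ratio was 1.16 for CTH, 0.15 for ZRANB2, 0.00 for SRSF11, -0.11 for ANKRD13C and -0.24 for LRRC40. With siHHLA3-1 over siNC, ANKRD13C (-0.29) lay further from 0 than CTH (0.23). ZRANB2 (0.06), SRSF11 (0.08) and LRRC40 (-0.19) lay nearer to 0 than CTH.

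CBS, cystathionine beta-synthase, which acts just before CTH, followed another order. It had 12.9 CPM from 457 reads with siHHLA3-1 (11.7 to 14.1) and 13.0 CPM from 353 reads with siHHLA3-3 (11.6 to 14.4), against 8.26 CPM from 265 reads with siNC (7.30 to 9.32). The knockdown libraries overlapped each other and lay above siNC, 1.56-fold for siHHLA3-1 (1.34 to 1.82) and 1.57-fold for siHHLA3-3 (1.33 to 1.85). CTH exceeded CBS by 1.99-fold with siHHLA3-1 and 3.96-fold with siHHLA3-3, against 2.59-fold with siNC, on the TPM scale. CBS has a near-identical copy on GRCh38, CBSL, for which no value is given here. The build named for the reads is hg19, and whether the reference used held CBSL is not given. Its bearing on the CBS counts was not tested.

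Levels can be compared between genes per length, with the authors' TPM. In the siNC library the order was SHMT2 (217 TPM), PSAT1 (122), MTHFD2 (61.4), PSPH (50.1), SHMT1 (37.8), PHGDH (13.9), CTH (10.8), CBS (4.16), ALDH1L2 (1.51) and ASNS (0.566). SHMT2 was above 95.9% of the genes that passed the filter, and ASNS above 0.0216% of them. Neighbours in this order lay further apart than counting error. With siHHLA3-3, CTH (27.0 TPM) stood above PHGDH (19.6 TPM). With siHHLA3-1 CTH was at 13.5 TPM and PHGDH at 13.0 TPM, a difference within the counting error of CTH. The authors' lengths, recovered from CPM over FPKM, matched the union of annotated exons for CTH (2.41 kb), but that of MTHFD2 was 11.4 kb where GENCODE release 29 gives 4.87 kb. The TPM of MTHFD2 is lower than it would be with the shorter length, in all libraries alike. Its place in the order depends on that length, and with the shorter one it would stand above PSAT1 in siNC.

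**Figure D2:**
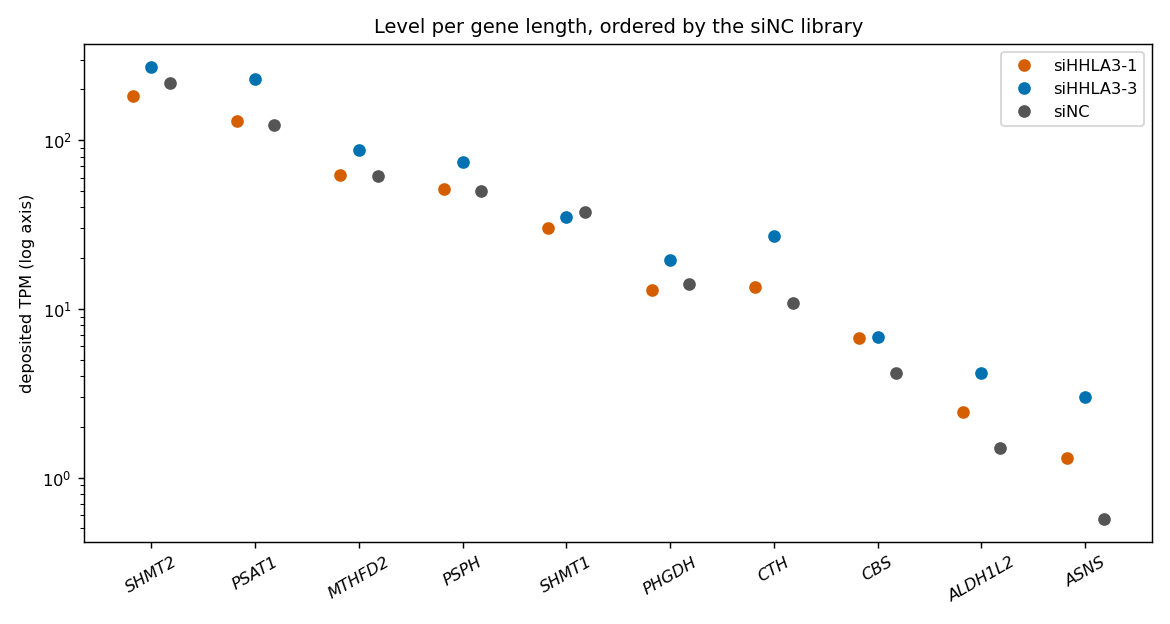
Deposited TPM (log axis) of the 10 enzymes in the siHHLA3-1, siHHLA3-3 and siNC libraries, 1 point per library, ordered by the siNC value. The range in siNC runs from 217 TPM for SHMT2 to 0.566 TPM for ASNS.

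To compare the set as a whole, log2 ratios of (CPM + 1) were taken between libraries scaled with TMM factors, and a ratio of at least 2-fold on that scale was counted. With siHHLA3-1 against siNC, 0 of 10 enzymes were 2-fold higher and 0 were 2-fold lower. Of all genes tested, 0.973% were 2-fold higher and 0.382% lower. The ratios of the set ran from -0.37 for SHMT1 to 0.63 for ASNS with 5 above 0, and the median was 0.00 beside -0.01 for all genes. At 1.5-fold, 1 enzyme was higher, ASNS, where 5.03% of all genes were. A pseudocount of 0.1 took ASNS past 2-fold. The siHHLA3-1 values thus lay on both sides of siNC: ASNS, CBS and ALDH1L2 were above by 0.54 to 0.63, and SHMT1 and SHMT2 below by 0.37 and 0.32. The ratios of MTHFD2 (-0.03) and PSPH (-0.03) were near 0 and changed sign with library totals, TPM or FPKM, where they were at most 0.03.

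With siHHLA3-3 against siNC, 3 of 10 enzymes were 2-fold higher, ASNS (1.498), ALDH1L2 (1.22) and CTH (1.16), and 0 were 2-fold lower. Among all genes 0.807% were 2-fold higher and 1.48% were lower. At 1.5-fold, 5 of 10 were higher, with PSAT1 (0.85) and CBS (0.59) in addition, beside 3.65% of all genes. The median of the set was 0.55, with 9 of 10 above 0, beside a median of -0.01 over all genes with 48.5% above 0. ASNS exceeded 99.8% of all genes in this ratio, ALDH1L2 99.6% and CTH 99.6%. The 2 comparisons with siNC share that library, and a low value in it would raise both ratios.

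The comparison of siHHLA3-3 with siHHLA3-1 does not use the siNC library. In it 0 of 10 enzymes were 2-fold higher and 0 were 2-fold lower, beside 0.757% and 2.12% of all genes. With nothing added to the CPM the folds were 2.28 for ASNS (1.66 to 3.15) and 2.00 for CTH (1.74 to 2.31), and a pseudocount of 0.1 gave 1 enzyme past 2-fold, ASNS. All 10 ratios were above 0, with a median of 0.58 beside 0.00 for all genes and 50.4% of genes above 0. At 1.5-fold 4 of 10 were higher, CTH (0.93), ASNS (0.87), PSAT1 (0.82) and ALDH1L2 (0.68), where 4.4% of all genes were. SHMT2 (0.58), PHGDH (0.58), PSPH (0.53) and MTHFD2 (0.48) were close behind, and SHMT1 had 0.21. The value for CBS was 0.01 with an interval of -0.18 to 0.20, the only interval of the set that held 0 in this comparison.

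**Figure D3:**
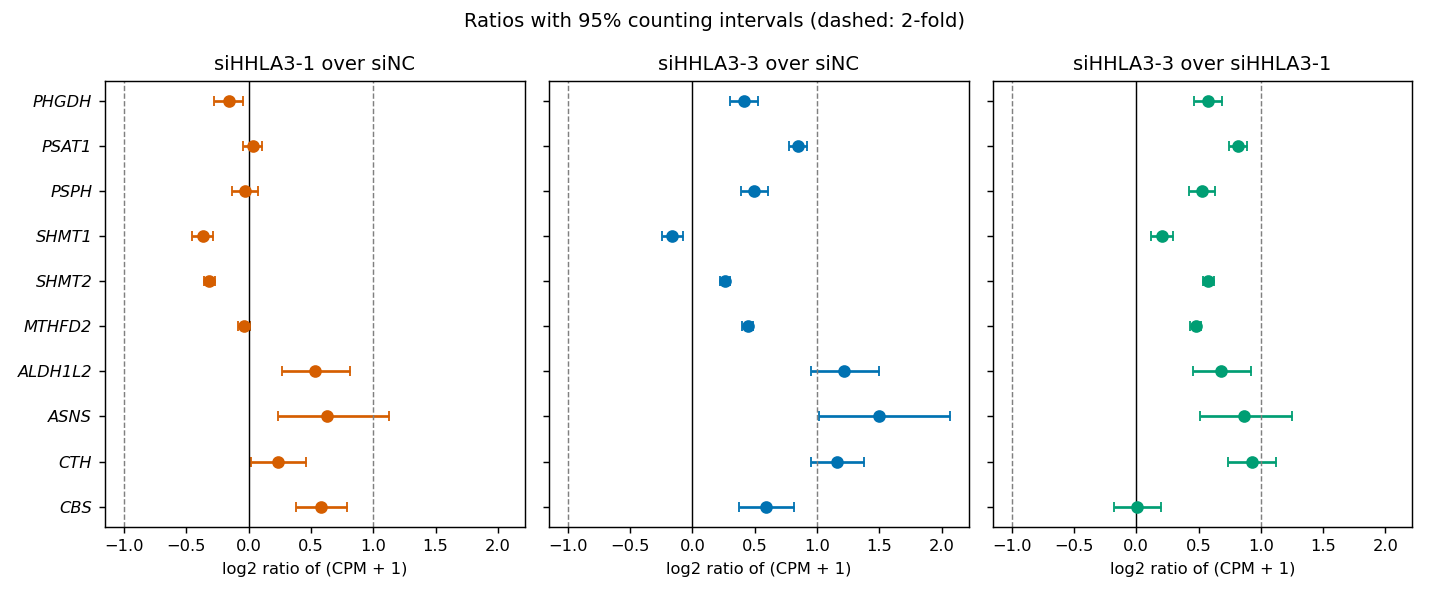
Log2 ratio of (CPM + 1) for each enzyme (points) with its 95% counting interval (bars), in siHHLA3-1 over siNC, siHHLA3-3 over siNC and siHHLA3-3 over siHHLA3-1. Dashed lines mark 2-fold, past which lie ASNS, ALDH1L2 and CTH in the middle panel, and the points of the right panel are all above 0.

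**Figure D4:**
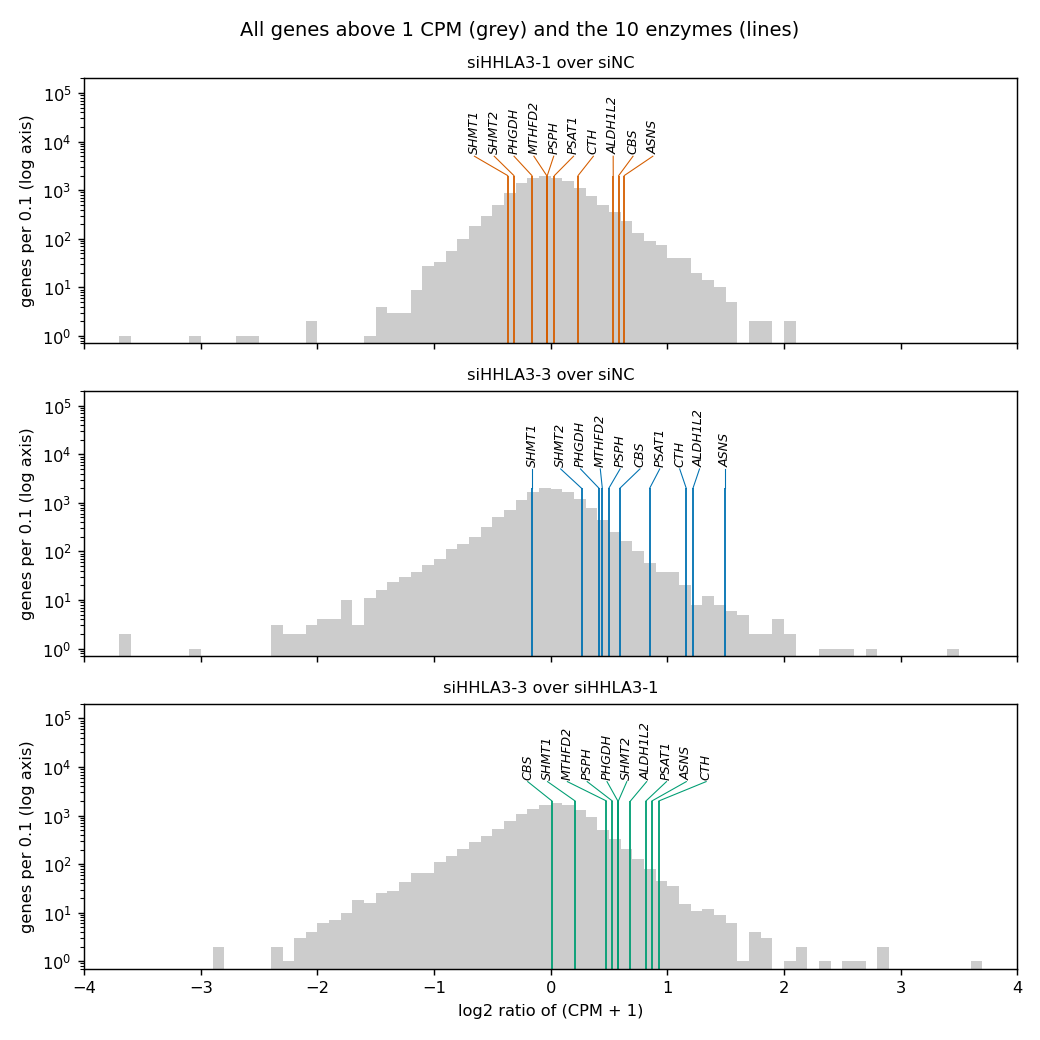
Histogram of the log2 ratio of (CPM + 1) over 13879 genes (grey, genes per 0.1, log axis) with the 10 enzymes as lines, for each of the 3 comparisons. The enzymes spread around 0 in siHHLA3-1 over siNC, with a median of 0.00, and lie to the right in siHHLA3-3 over siNC and in siHHLA3-3 over siHHLA3-1, with medians of 0.55 and 0.58.

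A scan of the longest annotated 3' UTR of each gene was made for the 7-base sequence with the lowest carriers in each comparison with siNC. Of 16328 sequences scanned, the one whose carriers were lowest by a t statistic was CAGAATG with siHHLA3-1 and GTGAACT with siHHLA3-3. Each was picked out on these same ratios, so lower carriers are built in. CAGAATG was found in 17.7% of 10491 genes and GTGAACT in 11.9%. The mean ratio of CAGAATG carriers was -0.11 with siHHLA3-1 (0.00 for other genes), and that of GTGAACT carriers -0.31 with siHHLA3-3 (-0.01 for other genes). Among the 10 enzymes 1 carried each sequence, in capitals here in its 3' UTR.

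SHMT1, CAGAATG at base 783 of 890, chromosome 17: atttttaaccaCAGAATGtctacaagaat

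ALDH1L2, GTGAACT at base 2273 of 4634, chromosome 12: aaagttaccaaGTGAACTggaattggaac

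SHMT1 had the lowest ratio of the set with siHHLA3-1 (-0.37), and ALDH1L2 had the second highest with siHHLA3-3 (1.22). The other 8 enzymes held neither sequence in the 3' UTR searched. SHMT1 and ALDH1L2 were among the genes whose ratios picked the sequences. Whether CAGAATG played a part in the SHMT1 value was not tested.

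Neighbouring pathways are given by the same ratios to siNC, first for siHHLA3-1 and then for siHHLA3-3. For the 10 listed genes of glycine cleavage and serine use the medians were -0.13 and -0.18, and 0 were 2-fold apart. Serine racemase SRR had ratios of -0.03 and -0.78, and SPTLC3, a subunit of the enzyme that starts sphingolipid synthesis from serine, -0.26 and -0.70. The dehydrogenase DLD had -0.28 and -0.58, and the phosphatidylserine synthase PTDSS1 -0.40 and 0.00.

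For the 13 listed genes of the folate cycle the medians were -0.34 and -0.08, with 0 at 2-fold against siNC. The mitochondrial formate-releasing synthetase MTHFD1L had ratios of -0.34 and -0.75, and the folate carrier SLC19A1 -0.65 and 0.15. The 6 purine synthesis genes, users of folate carbon, had medians of -0.44 and -0.29, with 0 and 1 above 0. Among them PPAT, the first enzyme, had -0.42 and -0.93, PAICS -0.69 and -0.68, ATIC -0.51 and -0.18, and PFAS -0.46 and -0.23.

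For the 12 listed genes of the methionine cycle and salvage the medians were -0.31 and -0.16. ENOPH1, a salvage enzyme, was the 1 gene of that list past 2-fold, with ratios of -0.42 and -1.23. Methionine synthase MTR had -0.68 and -0.43, the salvage genes APIP -0.64 and -0.24 and MTAP -0.42 and 0.03, and AHCYL1 -0.52 and -0.39. The 11 listed genes of cysteine use and sulfide oxidation had medians of 0.01 and -0.14. CHAC1, which degrades glutathione and is a known ATF4 target, had 7.21 CPM with siHHLA3-1 and 19.0 CPM with siHHLA3-3, against 4.11 CPM with siNC, or 1.75-fold and 4.61-fold higher. GCLC, the catalytic subunit that joins cysteine to glutamate, had ratios of -0.31 and -0.70. CSAD of taurine synthesis had 0.59 and -0.14, and the sulfide-oxidising enzymes SQOR 0.53 and 0.22 and SUOX 0.20 and -0.42.

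For asparagine, aspartate and glutamine the 12 listed genes had medians of -0.29 and 0.00, and 0 were 2-fold apart. The mitochondrial alanine aminotransferase GPT2 had 71.6 CPM with siHHLA3-1 and 96.3 CPM with siHHLA3-3, against 59.4 CPM with siNC. Glutamine synthetase GLUL had ratios of -0.29 and -0.59, and the asparaginase-like ASRGL1 -0.74 and -0.05. The 6 genes of proline and ornithine synthesis had medians of -0.23 and 0.08, among them ALDH18A1, the first enzyme from glutamate, at -0.29 and 0.21, OAT at 0.07 and 0.22, PYCR3 at -0.33 and -0.03, and the proline oxidase PRODH at -0.71 and -0.32.

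Regulators of the amino acid response had the highest medians of these pathway lists, 0.39 and 0.58, over 18 listed genes. With siHHLA3-1 0 were 2-fold higher and with siHHLA3-3 5 were: DDIT3, PPP1R15A, SESN2, TRIB3 and ATF3. Over all genes the shares were 0.973% and 0.807%. ATF4 had 252 CPM with siHHLA3-1 and 335 CPM with siHHLA3-3, against 198 CPM with siNC, in ratios 0.35 and 0.76. Its partner CEBPB had 0.16 and 0.62, and the growth inhibitor DDIT4 had 0.55 and 0.80. EIF2AK1, one of the kinases upstream of ATF4, had ratios of -0.03 and -0.81.

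**Figure D5:**
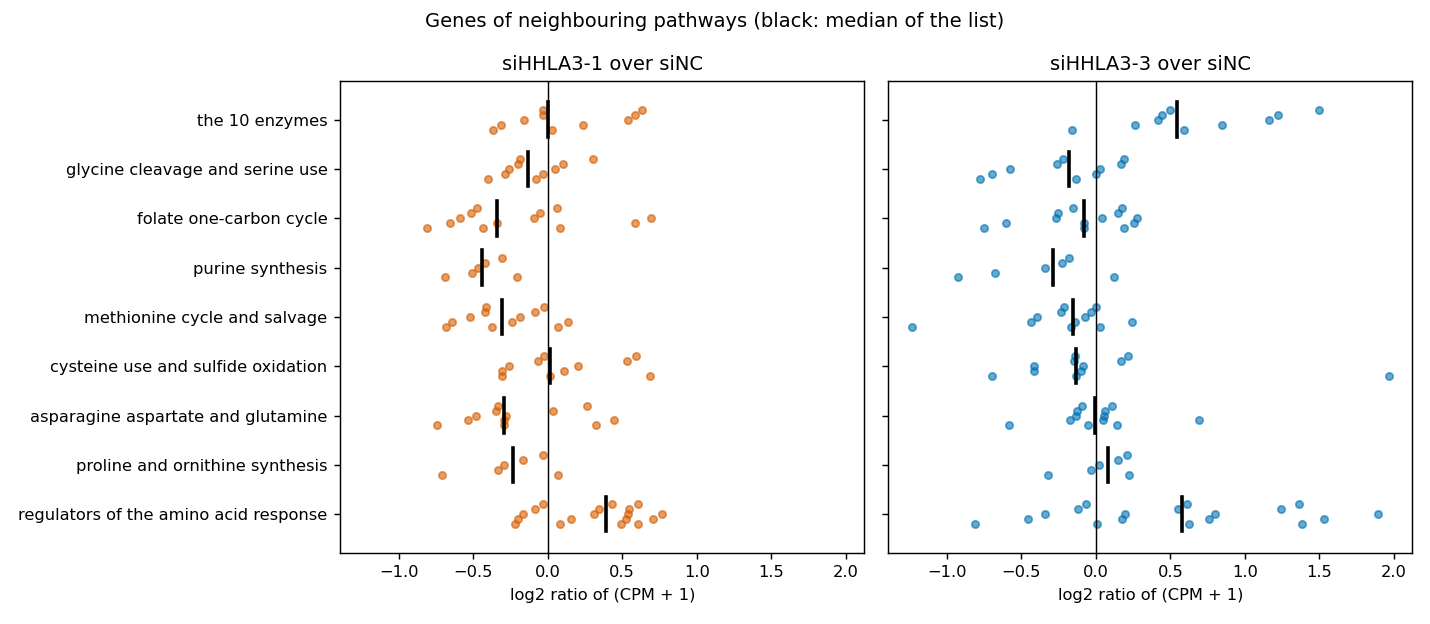
Log2 ratio of (CPM + 1) over siNC for genes of neighbouring pathways (points, genes above the filter; black bars, list medians), with siHHLA3-1 on the left and siHHLA3-3 on the right. With siHHLA3-3 the 10 enzymes (median 0.55) and the regulators (0.58) have medians above 0.5, and the purine list has the lowest median (-0.29).

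The genes most like CTH and ASNS were found by the distance between their pairs of ratios to siNC, among genes of at least 5 CPM. These are 2 ratios from 3 libraries, and both share siNC. Nearest to CTH were STC2 (distance 0.091), NOLC1 (0.10), HMGA2 (0.10), ASPHD1 (0.11) and CDC25A (0.11). Nearest to ASNS were SEMA7A (0.041), PPP1R15A (0.041), SPHK1 (0.063), IL6 (0.13) and ADM2 (0.15). The mean of ASNS itself, 2.24 CPM, is below 5 CPM, and the added 1 shrinks its ratios. With nothing added, its folds over siNC were 2.22 for siHHLA3-1 and 5.08 for siHHLA3-3. Those of PPP1R15A were 1.53 and 2.93, so the nearness to ASNS rests on the added 1.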

How the data were processed

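The authors deposited 1 table with read counts, FPKM, TPM and CPM per gene for 3 H1975 libraries. The deposited counts are whole and not normalised, per the file headers and values. The deposited CPM are counts over the library total on a common scale, and the deposited FPKM and TPM are scaled by gene length, per the file headers. The submitters' processing notes name the build hg19 and, with no version or role, Bowtie2, TopHat2, HISAT and HISAT2. The counting program and strand use are not given in the sources used here. Genes listed had a summed FPKM of at least 1.00.

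TMM factors (1.01, 1.01 and 0.978 for siHHLA3-1, siHHLA3-3 and siNC) were computed with edgeR 4.0.16, under R 4.3.3. Ratios are log2 of (CPM + 1). Folds are ratios of CPM with nothing added. Kept were genes whose mean reached 1 CPM. Level intervals are exact Poisson and ratio intervals exact binomial (scipy 1.17.1, Python 3.11.15). DESeq2 1.42.0 was used for alternatives. Coordinates come from GENCODE release 29 (GRCh38), and promoters from RefSeq GRCh38.p14, neither of them the build named for the reads. The enzymes, the lists and the rule for naming genes (each list gene past 2-fold and up to 4 others per list by size, and the 5 nearest to CTH and to ASNS) were chosen with earlier results of these data known. Genes named for exon overlap, as pseudogenes or as paralogues were added after their values were seen. A few genes under this rule are left unreported. The rule of 2-fold in both comparisons with siNC, and the edgeR fit of 2 samples against 1, were tested on simulated counts. The intervals, medians, 3' UTR scan and nearest genes were not tested in that way.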

Additional observations from a re-analysis of the deposited data

How the results depend on the processing

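With 1 library per group no value has a replicate check. No paired analysis was possible because each group held 1 library. The median ratio of the enzymes stayed between the medians of their lower and upper counting limits in each of the 3 comparisons. That band is not the counting error of the median itself. The settings were DESeq2 size factors, library totals, TPM, FPKM, a pseudocount of 0.1 and a filter at 5 CPM, which kept 9 enzymes. Leaving out the filter could not move the median, as all 10 enzymes pass it. Of the 207 recomputed single ratios, 16 moved by more than counting error, and no ratio past 2-fold changed sign. The 207 include those under no filter and under the filter at 5 CPM. Such ratios could not move, because a filter does not change a single ratio. The number of enzymes past 2-fold with siHHLA3-3 over siNC was 3. It was 2 with the filter at 5 CPM (ALDH1L2 and CTH), which left out ASNS. It was 1 with FPKM (CTH), where the added 1 weighs more on the smaller values. With a pseudocount of 0.1 it was 1 for siHHLA3-1 over siNC and 1 for siHHLA3-3 over siHHLA3-1, ASNS in both. At 1.5-fold the numbers were 1, 5 and 4 for siHHLA3-1 over siNC, siHHLA3-3 over siNC and siHHLA3-3 over siHHLA3-1.

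With both siHHLA3 libraries as 2 samples against 1, 0 of 10 enzymes had an adjusted p under 0.05 with edgeR's quasi-likelihood test or with DESeq2, as did 0 and 5 of 13879 genes. That fit has 1 residual degree of freedom, assumes that the lone siNC library varies like the others, and takes siRNAs that differ as replicates. At an unadjusted p under 0.05, 2 enzymes passed with each tool, as did 341 genes with edgeR and 231 with DESeq2. HHLA3 did not pass in it either (edgeR's quasi-likelihood test, Benjamini-Hochberg adjusted p = 1.0).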

Other observations

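The core TGATGNAA was held by 3.62% of all 35116 RefSeq windows. The number of windows searched for genes in the lists is not given here, so no share of them is stated. Promoter windows of 7 genes in the lists held the core on either strand, ASNS included. The ratios of the others were 0.68 with siHHLA3-1 and 1.96 with siHHLA3-3 for CHAC1, 0.71 and 1.24 for ATF3, and 0.08 and 0.61 for CEBPG, all 3 higher than siNC in both libraries. They were -0.48 and 0.06 for GOT1, the cytosolic aspartate aminotransferase, 0.13 and 0.00 for AHCYL2, and -0.34 and -0.75 for MTHFD1L. Genes with the match therefore had ratios on both sides of 0.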
